A study of Mus musculus with 31 samples.

Results

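The genes described here are 9 genes that define excitatory neurons of the mouse hippocampus: Prox1, Neurod1, Neurod2, Neurod6, Slc17a7, Camk2a, Wfs1, Bcl11b and Calb1. They were chosen by name, as markers of granule cells and pyramidal neurons, from 21887 protein-coding genes. For each gene the H3K4me3 peaks within 2 kb of either end of the gene were read from the peak list of every library, with their width and the authors' fold enrichment. Rows of the authors' lists of differential regions that touch the same window were read with their scores per library.

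The samples were hippocampi of C57BL6 mice aged 30 days, in 4 groups. Heterozygotes given TAK-418 and heterozygotes given vehicle were KMT2D+/bGeo, with a βGeo insertion in 1 of the 2 copies of Kmt2d. Wild types given TAK-418 and wild types given vehicle were KMT2D+/+. TAK-418 inhibits LSD1, a histone demethylase, and was given orally by gavage at 1 mg/kg/day for 2 weeks in methylcellulose, and methylcellulose alone was the vehicle. Each group had 4 H3K4me3 libraries from 4 mice, and H3K4me1 libraries came from the same mice, 15 in all. The allele is carried in the germline and not restricted to neurons, and the hippocampus was taken as a whole tissue, so a smaller share of neurons and less H3K4me3 per neuron cannot be told apart. Peak lists hold no reading of the βGeo allele, so the genotype labels were not checked here.

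Excitatory neurons release glutamate. In the hippocampus they are the granule cells of the dentate gyrus and the pyramidal neurons of fields CA1 to CA3, and each type keeps its identity through a small set of transcription factors. Trimethylation of histone H3 at lysine 4 (H3K4me3) marks the start of active genes, and genes that define a cell type often carry a domain that extends well into the gene. KMT2D is a methyltransferase of H3 lysine 4 that acts mainly at enhancers, and LSD1 removes methyl groups from the mono- and dimethylated forms of that residue.

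The peak lists fell into 2 kinds. In each group 1 library, with an index of sets 1 or 2 as inferred from the index sequence, had a long list of 13343 to 16750 peaks, and the other 12 libraries, with indices of sets 3 and 4, had short lists of 302 to 2281 peaks. The long lists were those of heterozygote TAK-418 replicate 3, heterozygote vehicle replicate 2, wild-type TAK-418 replicate 3 and wild-type vehicle replicate 3. With 1 long list per group, a difference of width between groups cannot be told apart from a difference between 2 libraries, and the part of the index set or of sequencing depth in any value was not tested. Depth itself is unknown, since the lists give no read counts.

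The start regions of 4 of the genes are shown because the results turn on them: Wfs1 had the only listed difference, Prox1 had a peak in the most libraries, Neurod2 had long peaks that began inside the gene, and Neurod6 had no peak across its start. Each sequence runs 5′ to 3′ on the strand of the gene, from 250 bases before to 50 bases after the RefSeq transcription start in GRCm38.p6, the assembly also called mm10. Capitals mark CG dinucleotides.
Wfs1: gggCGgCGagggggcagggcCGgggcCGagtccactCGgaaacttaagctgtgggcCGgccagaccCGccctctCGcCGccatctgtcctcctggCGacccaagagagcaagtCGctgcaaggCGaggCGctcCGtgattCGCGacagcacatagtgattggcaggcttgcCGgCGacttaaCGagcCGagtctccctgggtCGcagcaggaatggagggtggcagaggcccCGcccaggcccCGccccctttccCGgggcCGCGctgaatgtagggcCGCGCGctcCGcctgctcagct
Prox1: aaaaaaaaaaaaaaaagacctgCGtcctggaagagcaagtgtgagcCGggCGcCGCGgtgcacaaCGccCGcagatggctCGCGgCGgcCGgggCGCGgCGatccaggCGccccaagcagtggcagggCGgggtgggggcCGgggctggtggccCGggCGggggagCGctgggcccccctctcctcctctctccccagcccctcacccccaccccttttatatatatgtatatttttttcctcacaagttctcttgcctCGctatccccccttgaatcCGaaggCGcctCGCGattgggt
Neurod2: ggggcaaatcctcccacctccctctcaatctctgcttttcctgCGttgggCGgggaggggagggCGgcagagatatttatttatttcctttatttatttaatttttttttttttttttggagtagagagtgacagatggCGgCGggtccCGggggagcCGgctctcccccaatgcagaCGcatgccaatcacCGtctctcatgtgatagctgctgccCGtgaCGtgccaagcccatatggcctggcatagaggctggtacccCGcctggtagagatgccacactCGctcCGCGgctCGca
Neurod6: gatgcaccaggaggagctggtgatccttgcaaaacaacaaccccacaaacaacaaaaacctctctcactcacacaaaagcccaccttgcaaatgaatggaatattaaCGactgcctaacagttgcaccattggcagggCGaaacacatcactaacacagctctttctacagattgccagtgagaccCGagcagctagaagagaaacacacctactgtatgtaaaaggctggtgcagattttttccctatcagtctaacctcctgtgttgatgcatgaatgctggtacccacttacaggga
The Wfs1 sequence lies at chr5:36988933-36989232 on the minus strand, and its last 68 bases fall inside the region listed as different. Prox1 is at chr1:190170778-190171077, Neurod2 at chr11:98329596-98329895 and Neurod6 at chr6:55681214-55681513, all on the minus strand.

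These starts differed widely in CG content. Wfs1 held 30 CG dinucleotides in 300 bases, at least as many as 89.4% of the 32851 mouse start regions in the table, whose median was 7. Neurod1 held 26, Prox1 held 25, Neurod2 held 16, Slc17a7 held 13 and Bcl11b held 9. Neurod6 held 3, at least as many as 31.4% of all start regions. A second RefSeq start of Prox1 held 14. Read on both strands, the GC box GGGCGG occurred 4 times at Wfs1 and at Neurod1, 3 times at Slc17a7, 2 times at Prox1 and at Neurod2, and not at Neurod6 or Bcl11b, while 35.7% of all start regions held it. CAGATG, a form of the E-box that basic helix-loop-helix factors such as those of the NeuroD family bind, occurred 1 time each at Wfs1, Prox1 and Neurod2, and in 17.2% of all start regions. CAGCTG, another E-box, was in none of the 7 matched genes and in 16.3% of all start regions. TATAAA occurred 1 time each at Prox1 and Bcl11b, and in 13.6% of all start regions. These matches describe letters in a window and do not show binding.

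In the long lists nearly all of the genes carried H3K4me3. A peak lay within 2 kb of an end of 9 of 9 genes in the heterozygote TAK-418 library, 8 of 9 in the heterozygote vehicle library, 9 of 9 in the wild-type TAK-418 library and 7 of 9 in the wild-type vehicle library. Among all protein-coding genes the shares were 58.8%, 56.2%, 60.1% and 55.1% in the same libraries. The gene without a peak in the heterozygote vehicle library was Neurod1, and those without one in the wild-type vehicle library were Neurod6 and Calb1. A gene without a peak in a list is one at which the caller made no call, which does not show that the mark is absent.

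**Figure D1:**
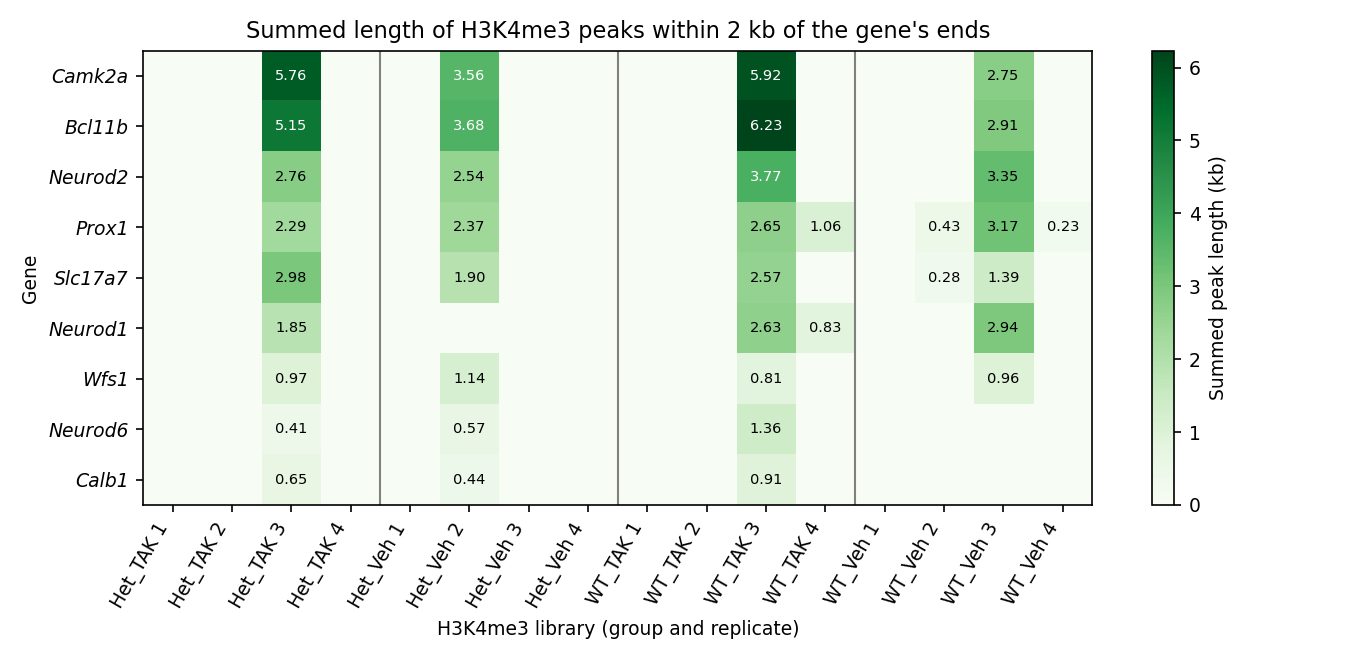
Summed length in kb of the H3K4me3 peaks within 2 kb of the ends of each gene (rows) in each of the 16 libraries (columns; Het, KMT2D+/bGeo; WT, KMT2D+/+; TAK, TAK-418; Veh, vehicle; the number is the replicate). Empty cells have no peak. Values fill 1 column per group, and outside these columns only 3 genes have a value, all in wild-type libraries.

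The mean length ranged widely among the genes. Camk2a, Bcl11b, Neurod2, Prox1, Slc17a7 and Neurod1 averaged 1855.5 to 4499 bp of peak over the 4 long lists, and Wfs1, Neurod6 and Calb1 averaged 499.5 to 969.5 bp. In the order of the means, none of the 8 pairs of neighbours differed by more than the larger SD of the pair, so neither the order nor a boundary between longer and shorter genes is resolved. Each SD is taken over libraries of different groups, and libraries without a peak enter as 0 bp.

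Among the transcription factors, Bcl11b (chr12:107910403-108004145) had the longest mean, although in the wild-type vehicle library it was shorter than Neurod2, Prox1 and Neurod1. Its gene product, CTIP2, is a zinc finger protein of CA1 pyramidal neurons and granule cells. H3K4me3 covered 5151 bp in the heterozygote TAK-418 library, 3681 bp in the heterozygote vehicle library, 6230 bp in the wild-type TAK-418 library and 2914 bp in the wild-type vehicle library, a mean of 4494 ± 1484 bp (SD, n = 4). These lengths placed Bcl11b between the 97.3rd and the 99.8th percentile of all genes with a peak in the same library. In the heterozygote TAK-418 library the domain was split, with 1 peak of 3363 bp and 1 of 1788 bp on either side of the RefSeq start, and in the other 3 long lists 1 peak spanned that start. A further peak lay inside the gene, 69.3 to 70.2 kb from its 3′ end, in all 4 long lists, with widths of 785, 958, 417 and 571 bp and fold enrichments of 4.62, 3.26, 3.63 and 3.30 in the heterozygote TAK-418, heterozygote vehicle, wild-type TAK-418 and wild-type vehicle libraries. The wild-type TAK-418 library had 1 more inner peak, of 284 bp with a fold enrichment of 3.11. Inner peaks are not part of the summed length.

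Neurod2 (chr11:98325415-98329645) encodes a basic helix-loop-helix factor of maturing pyramidal and granule neurons. Its peak measured 2764 bp in the heterozygote TAK-418 library, 2543 bp in the heterozygote vehicle library, 3765 bp in the wild-type TAK-418 library and 3352 bp in the wild-type vehicle library (mean 3106 ± 556 bp, SD, n = 4). In all 4 long lists the peak began downstream of the start, by 101, 351, 20 and 268 bp in the same libraries, and ran 2864 to 3784 bp into the gene. No long list had a Neurod2 peak across the start itself, and 3 of the 4 peaks began beyond the end of the sequence shown.

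Prox1 (chr1:190118035-190170827) encodes a homeodomain factor that dentate granule cells need to keep their identity. It was the gene with a peak in the most libraries, 7 of 16. In the long lists its peak measured 2288 bp in the heterozygote TAK-418 library, 2370 bp in the heterozygote vehicle library, 2654 bp in the wild-type TAK-418 library and 3170 bp in the wild-type vehicle library (mean 2620.5 ± 398 bp, SD, n = 4). All 4 peaks covered both RefSeq starts of Prox1. The end of Prox1os, a long noncoding RNA that overlaps this start, lies inside the Prox1 peak in 5 libraries, so the mark there cannot be assigned to 1 of the 2 transcripts.

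Neurod1 (chr2:79452637-79456636), a basic helix-loop-helix factor of granule neuron differentiation, varied more between the long lists, relative to its mean, than the other 5 genes with the longer means. Its peak measured 1853 bp in the heterozygote TAK-418 library, 2634 bp in the wild-type TAK-418 library and 2935 bp in the wild-type vehicle library, and none was called in the heterozygote vehicle library. The 2 wild-type peaks began 398 and 372 bp upstream of the start in the TAK-418 and the vehicle library, and the heterozygote TAK-418 peak began 705 bp downstream of it.

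Neurod6 (chr6:55677818-55681263), a factor of the same family that marks pyramidal neurons, was the exception among the transcription factors. Its peaks summed to 411 bp in the heterozygote TAK-418 library, 574 bp in the heterozygote vehicle library and 1362 bp in the wild-type TAK-418 library, with none in the wild-type vehicle library. They lay 2854 to 4882 bp downstream of the start, at or past the 3′ end of this short gene. The heterozygote vehicle library had 1 more, of 291 bp, that began 118 bp inside the gene. None of the Neurod6 peaks covered the start. Of the 7 genes with a start region in the table, Neurod6 also held the fewest CG dinucleotides.

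**Figure D2:**
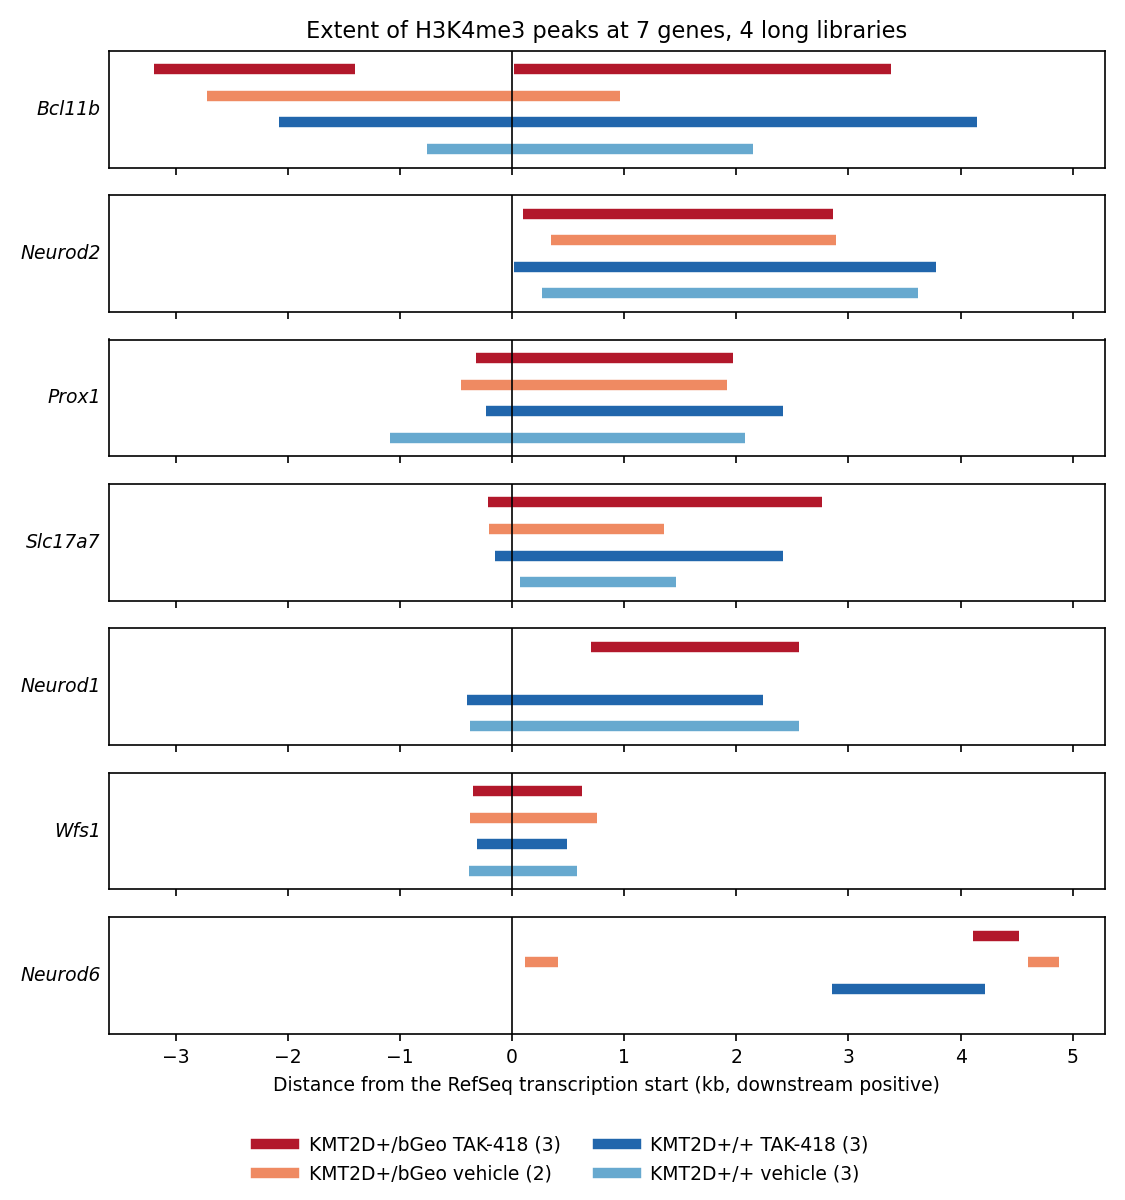
Extent of the H3K4me3 peaks in kb from the RefSeq transcription start (0; downstream is positive) for the 7 genes with a start in the table, in the long list of each group; the number in brackets is the replicate. A peak of 337 bp at the far end of Slc17a7 in the heterozygote vehicle library lies outside the axis. Neurod2 peaks lie downstream of the start in all 4 libraries, Prox1 and Wfs1 peaks cover it in all 4, and no Neurod6 peak covers it.

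Of the genes for synaptic proteins, Camk2a, which encodes the alpha subunit of the calcium/calmodulin-dependent kinase of excitatory synapses, had the longest mean of the 9 genes. H3K4me3 covered 5761 bp in the heterozygote TAK-418 library, 3563 bp in the heterozygote vehicle library, 5925 bp in the wild-type TAK-418 library and 2747 bp in the wild-type vehicle library (mean 4499 ± 1589 bp, SD, n = 4). It stood between the 96.5th and the 99.7th percentile of length, but its fold enrichment, 5.10, 2.73, 4.24 and 4.12 in the same libraries, stood between the 4.51st and the 22.2nd percentile. Camk2a therefore had a long and low domain.

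Slc17a7 (chr7:45163921-45176139), the vesicular glutamate transporter VGLUT1, showed the same form. Its peaks summed to 2983 bp in the heterozygote TAK-418 library, 1897 bp in the heterozygote vehicle library, 2570 bp in the wild-type TAK-418 library and 1389 bp in the wild-type vehicle library (mean 2210 ± 707 bp, SD, n = 4). The fold enrichment of 2.86 to 4.19 stood between the 3.82nd and the 6.78th percentile of all genes with a peak. In the heterozygote vehicle library 337 bp of the sum came from a separate peak at the far end of the gene.

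Wfs1 (chr5:36966104-36988982), which encodes the endoplasmic reticulum protein wolframin and marks CA1 pyramidal neurons, had the smallest SD of length. Its peak measured 972 bp in the heterozygote TAK-418 library, 1136 bp in the heterozygote vehicle library, 806 bp in the wild-type TAK-418 library and 964 bp in the wild-type vehicle library (mean 969.5 ± 135 bp, SD, n = 4). All 4 peaks covered the start, from at most 388 bp upstream to at most 760 bp downstream. Fold enrichment was 4.61, 3.03, 6.45 and 6.54 in the same libraries, where the median of all genes with a peak was 6.20, 4.36, 6.40 and 5.54. Both heterozygote values were lower than both wild-type values. The share of all genes with that order was not counted, so no difference between genotypes is read from it. Prox1, Neurod2, Slc17a7, Camk2a and Bcl11b did not have that order. At Neurod1 the heterozygote TAK-418 value, 4.80, was above the wild-type values of 3.67 with TAK-418 and 3.75 with vehicle. At Calb1 the heterozygote values, 3.87 with TAK-418 and 3.93 with vehicle, were above the wild-type TAK-418 value of 3.62. With 1 long list in each group these values describe 4 libraries.

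Calb1 (chr4:15881264-15906709), the calcium buffer calbindin of granule cells and some CA1 pyramidal neurons, had the shortest mean. Its peak measured 652 bp in the heterozygote TAK-418 library, 440 bp in the heterozygote vehicle library and 906 bp in the wild-type TAK-418 library, and none was called in the wild-type vehicle library. These lengths stood between the 8.45th and the 31.5th percentile of genes with a peak.

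Against all genes, most of the identity genes with a peak were long rather than strongly enriched. Wfs1, Neurod6 and Calb1 were not among the long ones. The 9 genes were chosen with earlier results of these data known, so the comparisons are descriptive. Over the 4 long lists, 5 or 6 of the 7 to 9 genes with a peak were above the upper quartile of length of all genes with a peak in the same library. Their median length was 2133.5 to 2914 bp, against 978 to 1185 bp for all genes with a peak. Between 50% and 71.4% of them were covered over more than 2 kb, against 10.2% to 17.1% of all genes with a peak. Their median fold enrichment was 3.31 to 4.80, against 4.36 to 6.40 for all genes with a peak. Set beside genes of similar length, within 20%, the fold enrichment was below the median for 8 of 9 genes in the heterozygote TAK-418 library, 6 of 8 in the heterozygote vehicle library, 8 of 9 in the wild-type TAK-418 library and 5 of 7 in the wild-type vehicle library.

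**Figure D3:**
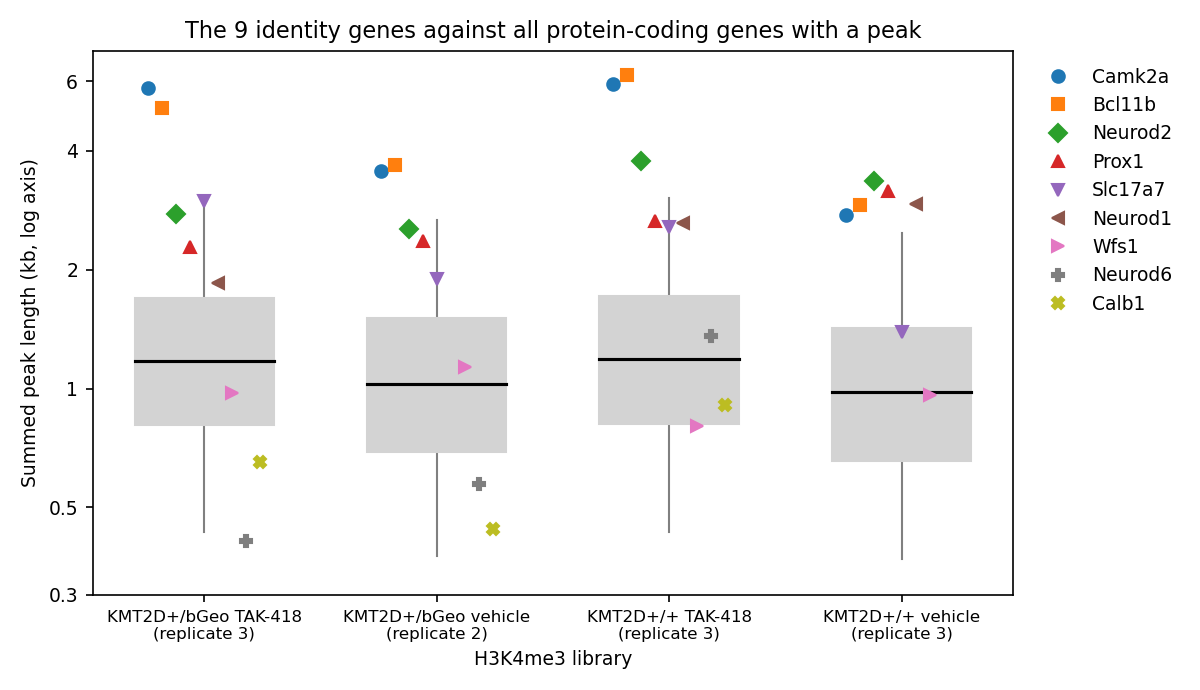
Summed H3K4me3 peak length in kb (log axis) of the 9 genes in the long list of each group. Grey boxes span the lower to the upper quartile of all protein-coding genes with a peak in that library, the black line is their median and the thin line runs from the 5th to the 95th percentile. Most of the genes sit above the box, and Wfs1, Neurod6 and Calb1 are the shortest wherever they have a peak.

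Few of these peaks were strong calls. A peak with a −log10 q of at least 5 was found at 1 of 9 genes in the heterozygote TAK-418 library, Prox1, and at none in the heterozygote vehicle library. It was found at Neurod2 and Wfs1 in the wild-type TAK-418 library and at Wfs1 and Bcl11b in the wild-type vehicle library. Of all protein-coding genes 41.4%, 17.3%, 41.4% and 30.7% had such a peak in the heterozygote TAK-418, heterozygote vehicle, wild-type TAK-418 and wild-type vehicle libraries. The presence of the other identity genes in the long lists rests on peaks with a −log10 q under 5.

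Both libraries of TAK-418-treated mice had longer domains than both vehicle libraries at Camk2a, Bcl11b and Slc17a7, that is at 3 of the 6 genes with a peak in all 4 long lists. The same held for 40.7% of the 11248 protein-coding genes with a peak in all 4. Within genotypes, the TAK-418 library had the longer domain at 4 of 6 genes in heterozygotes and at 4 of 6 in wild types, against 67.4% and 76.0% of all such genes. The identity genes were thus close to the background, and each side is 1 library.

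In the short lists 3 of 9 identity genes had a peak in at least 1 library (33.3%), against 15.7% of all protein-coding genes. Prox1 had a peak of 1063 bp in wild-type TAK-418 replicate 4, of 432 bp in wild-type vehicle replicate 2 and of 235 bp in wild-type vehicle replicate 4. Neurod1 had a peak of 827 bp in wild-type TAK-418 replicate 4, and Slc17a7 had a peak of 282 bp in wild-type vehicle replicate 2. All 5 peaks lay in wild-type libraries, and the 6 short heterozygote lists had none at any of the 9 genes. Over all protein-coding genes, 409 had a peak in any of the short heterozygote lists and 3270 in any of the short wild-type lists, so the same imbalance was present in the background. A peak in at least 3 short lists was found at Prox1 and at 1.06% of all protein-coding genes. The 3 short lists in question were the only short ones with more than 2% of protein-coding genes marked, namely 5.92%, 8.93% and 2.92% in wild-type TAK-418 replicate 4, wild-type vehicle replicate 2 and wild-type vehicle replicate 4. The other short lists marked 0.443%, 0.224% and 0.809% of genes in heterozygotes given TAK-418, 0.525%, 0.649% and 0.397% in heterozygotes given vehicle, 0.905% and 0.366% in wild types given TAK-418 and 0.758% in wild types given vehicle.

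Counted over all 4 libraries of each group, peak presence gave no call. For Prox1 1 of 4 heterozygote vehicle libraries and 3 of 4 wild-type vehicle libraries had a peak, and Fisher's exact test gave p = 0.486 and an adjusted p of 1. The heterozygote TAK-418 group, also at 1 of 4, gave the same values against wild-type vehicle. Every other gene that could be tested gave p = 1 in the same exact test. Of 11414 to 11916 genes tested per comparison, 0 (0%) passed an adjusted p of 0.05 in any of the 4 comparisons, and 0 had an unadjusted p under 0.05. With 4 libraries against 4 the smallest p of this exact test is 0.0286, which no single gene can carry past an adjustment over that many genes, so the design could not give a call and the count of 0 does not show that presence was equal. Of the 4 comparisons, 3 share the wild-type vehicle libraries.

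Marker lists of other cell types were read in the same way. They too were chosen with earlier results of these data known. Of 32 other genes of hippocampal excitatory neurons, 78.1% to 87.5% had a peak in a long list. The range was 33.3% to 66.7% for 12 markers of inhibitory neurons, 44.4% to 77.8% for 9 markers of astrocytes, 40% to 80% for 10 of the oligodendrocyte lineage, 28.6% to 57.1% for 7 of vascular cells and 10% to 30% for 10 of microglia. Of 10 genes specific to other tissues, 0% to 30% had a peak, and 7 of them had none in any of the 16 libraries. The ranges of the excitatory, astrocyte and oligodendrocyte lists touch or overlap. Those of inhibitory neurons, vascular cells, microglia and other tissues lie below the excitatory ones. Within each long list the share of the 9 identity genes was above those of the astrocyte and oligodendrocyte lists. That of the 32 other excitatory genes was below the oligodendrocyte list in the heterozygote vehicle library (78.1% against 80%). These lists are small.

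**Figure D4:**
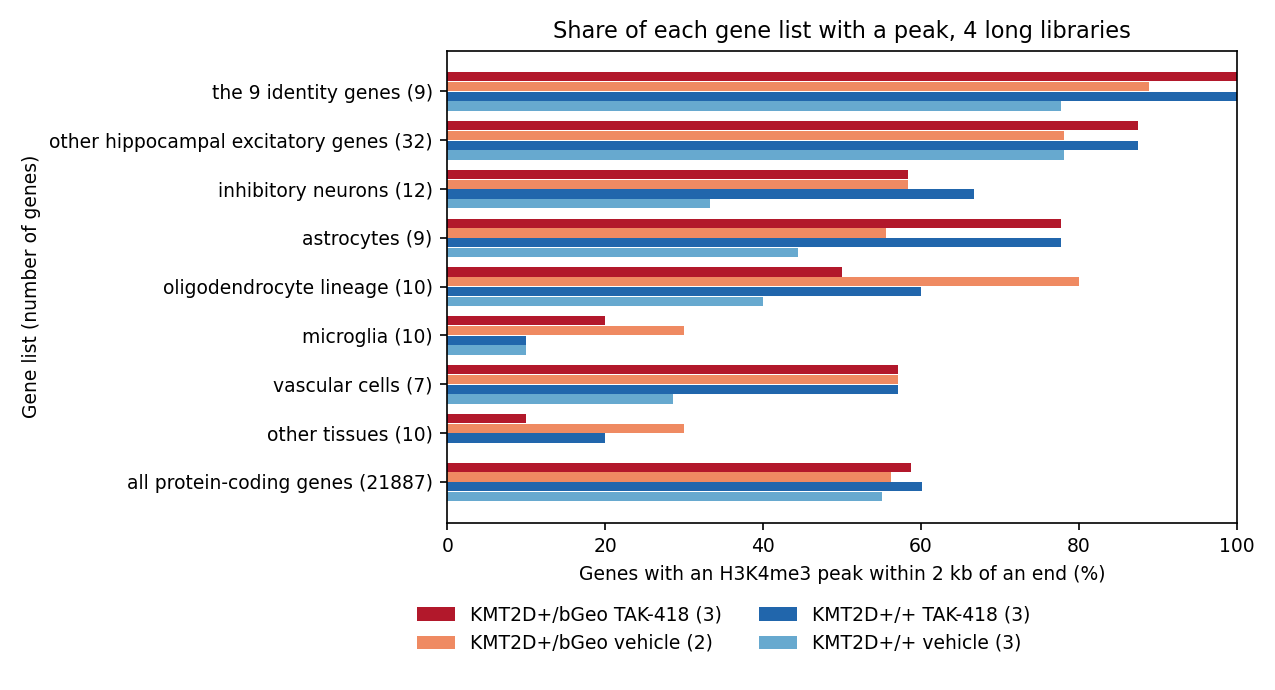
Share in percent of the genes of each list with an H3K4me3 peak within 2 kb of an end, in the long list of each group; the number after each list is its number of genes and the number in brackets in the legend is the replicate. The 9 identity genes reach 77.8% to 100%, and all protein-coding genes reach 55.1% to 60.1%.

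The other excitatory genes also spread widely in length. Among the long domains were those at Meis2, a homeodomain factor (mean 4841 ± 1994 bp), and at Nrn1, which encodes neuritin, a protein of activity-dependent neurite growth (mean 4619 ± 1933 bp; SD, n = 4 for each). Cpne4 and Mef2c had no peak at either annotated end in any of the 16 libraries. Over the 32 genes, the median length of those with a peak was 1939.5, 1690, 2324 and 1639 bp in the heterozygote TAK-418, heterozygote vehicle, wild-type TAK-418 and wild-type vehicle libraries, below that of the 9 identity genes in each. Long domains were not particular to excitatory genes. For the astrocyte markers with a peak, 4 to 7 per library, the medians were 1504, 1486, 3013 and 1515.5 bp in the same libraries. In the wild-type TAK-418 library alone this was above the identity genes, at 2634 bp. There 71.4% of these astrocyte markers were covered over more than 2 kb, against 66.7% of the identity genes.

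For each identity gene the protein-coding gene with the most similar lengths over the 16 libraries was sought by Euclidean distance in kb. Camk2a and Bcl11b were each other's nearest, at 0.712 kb. Prox1 was nearest to Bmpr2 (0.572 kb), Neurod1 to Neurog2 (1.14 kb), Neurod2 to Ccdc85c (0.422 kb), Slc17a7 to Car10 (0.347 kb), Wfs1 to Gtf2a2 (0.0739 kb), Neurod6 to Pimreg (0.116 kb) and Calb1 to Smagp (0.0997 kb). Since 9 of the 16 values or more are 0 for every identity gene, these distances rest mainly on the 4 long lists.

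H3K4me1 was not called at these genes. The 15 H3K4me1 lists held 88 to 456 peaks and marked 16 to 65 protein-coding genes each, and none marked an identity gene. The authors' lists of differential regions that name no mark were taken to be those of H3K4me1. None of these lists touched the genes, and such regions lay at few genes at all: 0.27% of protein-coding genes for heterozygote vehicle against wild-type vehicle, 0.224% for heterozygote TAK-418 against heterozygote vehicle, 0.215% for TAK-418 against vehicle in wild types and 0.251% for heterozygote TAK-418 against wild-type vehicle. The nearest such region lay 51737 bp from Neurod1, in the lists of heterozygote vehicle against wild-type vehicle and of heterozygote TAK-418 against wild-type vehicle.

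The authors' lists of differential H3K4me3 regions addressed the loss of 1 Kmt2d copy and the effect of TAK-418 directly, and among the identity genes they held only Wfs1, in 1 comparison. For heterozygote vehicle against wild-type vehicle, 0 of 9 genes had a listed region within 2 kb of an end, against 7.21% of all protein-coding genes. For heterozygote TAK-418 against heterozygote vehicle it was 1 of 9, against 4.2% of all genes, and the 1 listed as lower compares with 2.12% of all genes. In wild types, TAK-418 against vehicle, it was 0 of 9, against 9.98%, and for heterozygote TAK-418 against wild-type vehicle 0 of 9, against 9.73%. With 9 genes these counts are near the background.

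The Wfs1 region, chr5:36988701-36989000, is 300 bp wide and spans the transcription start. Its scores were 28, 0, 43 and 40 in heterozygotes given TAK-418, against 98, 46, 57 and 28 in heterozygotes given vehicle. The groups overlap: the highest treated score, 43, is above the lowest vehicle score, 28, which also occurs among the treated. Means were 27.8 ± 19.6 with TAK-418 and 57.2 ± 29.7 with vehicle (SD, n = 4 each), a ratio of 0.485. In the authors' deposited table the region has a −log10 p of 2.51 and is listed as lower with TAK-418.

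That difference did not pass a test over libraries. limma on log2(score + 1) gave a log2 difference of -1.81 with a standard error of 1.09 and an adjusted p of 0.691 over the 1715 regions of the list. A two-sided exact permutation test gave p = 0.171, where 0.0286 is the smallest value that 4 libraries against 4 can give. The treated score of 0 carried much of the size: without it the log2 difference was -0.50. No region of this list reached an adjusted p of 0.05 in limma (0%), 17 had an unadjusted p under 0.05, and the scores of the groups did not overlap for 0.35% of regions. The median log2 difference over the list was 0.57, so the difference at Wfs1 ran against that of most of the list. Near gene ends, however, the list was nearly even, with a region listed higher at 480 genes and one listed lower at 465. Of the other 3 lists, limma made calls in that of heterozygote TAK-418 against wild-type vehicle alone, 8 of 2722 regions (0.294%) and none at an identity gene. In the lists of the vehicle heterozygotes and of the treated wild types, 82 and 66 regions had an unadjusted p under 0.05. All regions of a list had been chosen by the authors as different between the same groups, so these counts are no separate support. For heterozygote TAK-418 against wild-type vehicle, limma gave 1 standard error, 0.873, at Nectin3, Amigo2, Stxbp6, Slc1a2 and Glul. Its p-values there did not reflect the spread of each region.

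**Figure D5:**
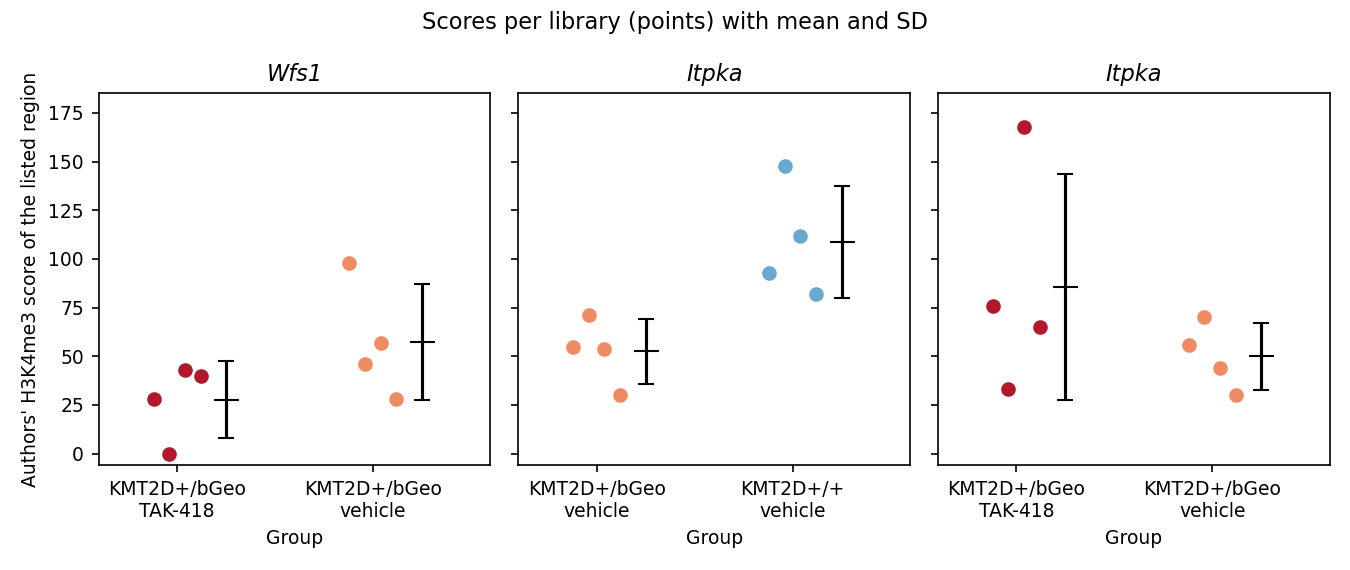
The authors' H3K4me3 score per library (points) with the mean and SD (bars, n = 4) for the listed regions at Wfs1 in heterozygotes given TAK-418 and given vehicle, at Itpka in heterozygotes and wild types given vehicle, and at Itpka in heterozygotes given TAK-418 and given vehicle. Groups overlap in the first and the last panel and not in the middle one. The scaling of the lists is not given, so scores are compared only within a panel.

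Of the 32 other excitatory genes, 6 had a listed region. For heterozygote vehicle against wild-type vehicle, 3 genes were listed lower and 0 higher (9.38% of the 32 genes, against 7.21% of all genes). For heterozygote TAK-418 against heterozygote vehicle 1 was listed higher and 1 lower (6.25%, against 4.2%), in wild types, TAK-418 against vehicle, 3 higher and 0 lower (9.38%, against 9.98%), and for heterozygote TAK-418 against wild-type vehicle 1 higher and 2 lower (9.38%, against 9.73%). The shares were close to those of all genes, and limma called none of them at an adjusted p of 0.05 with all libraries.

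Itpka, which encodes a kinase of inositol trisphosphate found in dendritic spines, was the one of them whose groups did not overlap. At chr2:119742301-119742800 its scores were 55, 71, 54 and 30 in vehicle-treated heterozygotes, against 93, 148, 112 and 82 in vehicle-treated wild types. Every heterozygote score was below every wild-type score, and the exact permutation test gave p = 0.0286, the smallest it can give. The region was in the list because the authors had chosen it as different between these same groups. Neither the separation nor this p is therefore separate support. limma gave a log2 difference of -1.06 with a standard error of 0.578 and an adjusted p of 0.575. The scores of the groups did not overlap for 2.03% of the regions of this list, whose median log2 difference was -0.72. With each library centred on its own median the difference at Itpka was -0.40, and the list's median was -0.06.

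A region that overlaps it, chr2:119742451-119742850, was listed as higher in heterozygotes given TAK-418, with scores of 76, 33, 168 and 65, against 56, 70, 44 and 30 in heterozygotes given vehicle. The groups overlap, the adjusted p from limma was 0.691, and the difference of 0.59 on the log2 scale was -0.025 without the library of each group whose median lay farthest from the rest. Both comparisons use the vehicle heterozygotes, so the lower and the higher listing at Itpka are not independent of each other.

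The remaining 5 had overlapping groups in every list. C1ql3, a secreted synaptic organiser, scored 1, 19, 79 and 48 in heterozygotes given TAK-418, against 104, 87, 70 and 45 in those given vehicle (adjusted p 0.691, limma). It was listed in the opposite direction in wild types, at 41, 63, 262 and 110 with TAK-418, against 51, 66, 121 and 66 with vehicle. Nectin3, an adhesion protein, scored 30, 102, 29 and 85 in vehicle-treated heterozygotes, against 29, 98, 149 and 150 in vehicle-treated wild types (adjusted p 0.588, limma), and its log2 difference of -0.76 was -0.10 after centring. In heterozygotes given TAK-418 it scored 37, 19, 138 and 20, against 35, 118, 187 and 180 in vehicle-treated wild types, a log2 difference of -1.51, and the authors' deposited table gives a −log10 p of 6.78. Leaving out the farthest library of each group by median removed the highest treated score, 138, and the lowest wild-type score, 35. The difference thereby widened to -2.66, so the adjusted p of 0.0437 (limma) in that setting is no separate support. Centred per library it was -0.84 with an adjusted p of 0.736 (limma). With 1 library left out the adjusted p was 0.0715 to 0.910 (limma). Amigo2, an adhesion protein that marks field CA2, was listed lower in vehicle-treated heterozygotes and in TAK-418-treated heterozygotes, each against vehicle-treated wild types, and higher in wild types given TAK-418 than in wild types given vehicle. Man1a, a mannosidase of the Golgi, was listed higher in wild types given TAK-418 and Stxbp6, a syntaxin-binding protein, higher in heterozygotes given TAK-418, each against vehicle-treated wild types. Adjusted p-values from limma ranged from 0.575 to 0.779 over these listings.

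Astrocyte markers appeared in the same lists. Of the 9 astrocyte markers, Glul was listed lower in vehicle-treated heterozygotes against vehicle-treated wild types and in TAK-418-treated heterozygotes against both vehicle groups. Slc1a2 was listed lower with TAK-418 in both genotypes, each against vehicle-treated wild types. Their adjusted p-values from limma ranged from 0.599 to 0.779. For heterozygote TAK-418 against wild-type vehicle, 2 of 9 astrocyte markers (22.2%) were listed, against 9.73% of all genes. Without the farthest library of each group both had an adjusted p of 0.0469 (limma). The log2 differences were then -2.86 at Slc1a2 and -2.15 at Glul. That setting left out the treated library with the highest median and the wild-type library with the lowest, which widened the differences, and it called 515 of the 2722 regions. Centred per library, the differences were -1.20 at Slc1a2 and -0.54 at Glul, each with an adjusted p of 0.736 (limma). None of the 12 markers of inhibitory neurons had a listed region in any of the 4 comparisons, and 2 of those 12 had no peak in any library. The part of the cellular makeup of the tissue in these values was not tested.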

How the data were processed

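H3K4me3 was read from 16 ChIP-seq libraries of 16 mice, 4 per group, and H3K4me1 from 15. Different mice are the replicates. The deposited peak lists have the MACS2 broad-peak layout, with 1 list per library, the authors' fold enrichment (a ratio) and the −log10 p and q of each peak. The submitters' processing notes name mm10, MACS2, MACS and bedtools. The aligner, control, thresholds and duplicate handling are not given in the sources used here, and sequencing depth is unknown. Beside these stand 8 deposited lists of differential regions by the authors, 4 of them for H3K4me3, with a −log10 p and a whole-number score per library. The other 4 name no mark. They were taken as H3K4me1 because 1 of them holds 3 scores for wild types given TAK-418, which had 3 H3K4me1 libraries. The tool, normalization and any adjustment of that p are not given in the sources used here. Scores carry no library names, so no score was tied to a named library or mouse, and scores were compared only within a list. For centring and for leaving out a library, the position of a score was taken to be the same library in every row of a list, which the files do not state.

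Genes came from RefSeq GRCm38.p6. Python 3.11.15, scipy 1.17.1 and R 4.3.3 with limma 3.58.1 were used. Per gene, summed length and highest fold of peaks within 2 kb of either end were taken. Start sites and start-region sequences came from RefSeq for the 7 of 9 genes that matched, on the same assembly. Presence was tested with two-sided Fisher's exact tests on genes that at least 2 of the libraries marked and at least 2 did not. Scores were tested with limma on log2(score + 1), with no filter on low scores, and single regions also with exact permutation tests. P-values were adjusted by Benjamini-Hochberg over the whole table, and both steps were run on simulated data. The simulation for Fisher's test had larger groups than the data. That for limma had a large planted difference and no shift between libraries. These runs checked the code and do not show what the tests can find in this design.

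Alternatives were windows of 1 and 5 kb, a −log10 q of at least 5, an overlap of at least 200 bp, a pseudocount of 10, a mean score of at least 30, centring per library, and leaving out libraries. The 9 genes and the marker lists were chosen with earlier results of these data known. From the list of other excitatory genes the text names those with a listed H3K4me3 region and the 3 with the longest and the 3 with the shortest summed peaks, and for each of the 9 genes the 1 gene nearest to it in length. Some of the genes this rule selects are not reported here. Start regions are printed for Wfs1, Prox1, Neurod2 and Neurod6, for the reasons given with the sequences. Not every gene with a long peak is printed, and Bcl11b is among those left out.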

Additional observations from a re-analysis of the deposited data

Results flagged for a closer look

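Within groups of 4 libraries, Dixon's ratio (the gap of the extreme value to its neighbour over the range of the group, compared with its 95% critical value) marked sets in which 1 library stood apart. About 1 in 20 groups is marked by chance. The number of identity genes with an H3K4me3 peak was marked in heterozygotes given TAK-418 and in heterozygotes given vehicle, with a ratio of 1 in each, since 1 library of the TAK-418 group held 9 genes, 1 library of the vehicle group held 8, and the other 3 of each group held 0. Summed length was marked for 30 of the 36 sets of gene and group, with a ratio of 1 in 29 of them and of 0.864 for Prox1 in wild types given vehicle. In all 30 sets the library that stood apart was the long list of its group, with 411 to 6230 bp.

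Among scores of listed regions, Glul in heterozygotes given TAK-418 was marked in the comparison with vehicle-treated heterozygotes (0.851) and in that with vehicle-treated wild types (0.835). Nectin3 in heterozygotes given TAK-418 had a ratio of 0.849, and Amigo2 in wild types given TAK-418 had a ratio of 0.923. The marked score was the highest in each of these 4 sets. No score at Wfs1 was marked.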

How the results depend on the processing

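Fisher's test on peak presence gave 0 calls in all 4 comparisons under all 52 alternatives, but with smallest p-values of 0.0286 (4 against 4) and 0.1 (3 against 3) it could not give one, so this says nothing about stability. Wfs1 kept its lower score and missed the threshold in all 12 alternatives, with log2 differences from -2.61 to -0.50 and adjusted p from 0.359 to 0.908 (limma). The authors had listed the region as lower from these same groups, so the kept direction is no separate support. For heterozygote TAK-418 against wild-type vehicle, limma called 8 of 2722 regions, none at an identity gene. The authors had chosen all of these regions as different between the same groups, so no count of calls is separate support. limma called 0 with a pseudocount of 10, 0 with centring, 515 without the farthest library of each group (Nectin3, Slc1a2 and Glul among them, at -2.66, -2.86 and -2.15), and 0 to 11 with 1 library left out. The 515 calls followed removal of the treated library with the highest median and the wild-type library with the lowest, which widens the gap between the groups. Leaving out 1 library gave 0 to 1 calls for heterozygote TAK-418 against heterozygote vehicle and 0 to 3 for TAK-418 against vehicle in wild types. Log2 differences changed sign for Itpka (-0.025, heterozygote TAK-418 against heterozygote vehicle, without the farthest libraries), Glul (0.074, heterozygote against wild-type vehicle, centred) and C1ql3 (-0.13 to 0.75 with 1 library left out, wild-type TAK-418 against vehicle). The cause was not tested. Centring changed the regions with a positive difference to 882 of 2015, against 225, for heterozygote vehicle against wild-type vehicle, and to 1139 of 2722, against 749, for heterozygote TAK-418 against wild-type vehicle. A −log10 q of at least 5 left 1, 0, 2 and 2 identity genes in the long lists of heterozygote TAK-418, heterozygote vehicle, wild-type TAK-418 and wild-type vehicle. It lowered the mean length to 572 bp at Prox1, 941 bp at Neurod2, 442.5 bp at Wfs1, 728.5 bp at Bcl11b and 0 bp at the other 5 genes. A 5 kb window raised Prox1 to 3041 bp. No paired analysis was possible because the groups hold different mice and no replicate number links them; a block on index set was not run.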
